A study of Mus musculus with 6 samples.

Results

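The 39 Hox genes of the mouse were followed in L929 cells, an established fibroblast line from mouse connective tissue, with and without STING. They were chosen by symbol alone, as the rows named Hox with a cluster letter from a to d and a paralog number, and they are 39 of the 27507 gene identifiers in the table. Hox genes encode homeodomain transcription factors. They lie in 4 clusters, HoxA to HoxD, in which genes of the same number (a paralog group) descend from a common ancestor and low numbers lie at the 3′ end of each cluster. In the embryo they are switched on from the 3′ to the 5′ end, so that low numbers act towards the head and high numbers towards the tail and the ends of the limbs. Fibroblasts taken from different sites of the body keep different sets of Hox genes on in culture, which is why the set is read as a record of positional identity.

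Poly(A) RNA was sequenced in 3 control samples, whose genotype label is WT, and in 3 samples labelled STING KO. Both groups are the same line and no treatment is named for either. Whether the STING KO cells are 1 clone or a pool, and whether the replicates are separate cultures, is not stated in the sources used here. The tests therefore rest on a spread between samples that may be technical. Values are normalized counts, gene counts that the authors divided by a size factor near 1 of each sample. Below, the 3 values of a group are given in the order of replicates 1, 2 and 3.

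Totals were nearly equal, at 14382072 to 14526606 normalized counts per library. The targeted gene, Sting1 (Tmem173 in the table), fell in STING KO, from 318 ± 10.1 to 85.4 ± 6.96 normalized counts (SD, n = 3 each). Of 15 fibroblast markers 12 were above the minimum used for testing, 10 normalized counts in at least 3 libraries. Col1a1, Col1a2, Fn1 and Vim were among them. The markers Dcn, Lum and Fap did not meet it, although the highest single value among these reached 94.4. The markers of hepatocytes stood apart in 2 libraries: their 12 genes summed to 5002 in control replicate 3 and 4629 in STING KO replicate 1, against 229 to 608 in the other 4 libraries. Leukocyte markers summed to 775 to 894 in control and 821 to 965 in STING KO, and the sums of the groups overlapped. Of these 9 markers 4 were above the minimum and held nearly all of the sums. The other 5 reached at most 12.98, with the macrophage markers Itgam and Adgre1 at most at 4.97. The 11 markers of muscle, nerve and fat cells summed to 6512 to 7247 in control and 7399 to 8394 with STING KO, with no overlap. All 5 of them above the minimum had a positive sign (median log2 fold change 0.19) and held nearly all of the sums. The other 6 reached at most 3.97, with Sox2 and Myog listed at 0. By limma 2 of the 5 had an unadjusted p under 0.05, beside 6.37% of all genes tested. With 1 library left out that count was 0 to 3 and the median 0.12 to 0.30. The fibroblast markers summed to 219856 to 232234 in control and 234277 to 250784 with STING KO, also with no overlap. Taken singly, 12.1% of all genes tested had groups that did not overlap. The part of these differences between marker sums in the results below was not tested. Of the leukocyte, epithelial, endothelial and muscle, neural and adipocyte markers, 4 of 9, 2 of 6, 1 of 5 and 5 of 11 were above the minimum, and limma called 0 of them. The results below are given with and without the 2 libraries where these change them.

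The L929 cells held a broad Hox code, and 28 genes were on in both genotypes. A gene was called on in a group when it had at least 10 normalized counts in each of the 3 libraries. By that rule 28 of 39 members were on in control cells and 29 with STING KO. Of the remaining members, Hoxa11 and Hoxd3 lay near the level, and 9 stayed at or below 3.01 normalized counts in every library. At this level the set was complete in the middle of the clusters: all 15 genes of groups 4 to 8 were on in both genotypes. At a level of 20 instead, Hoxa6 and Hoxd4 of these groups were no longer on in both. Of the 8 genes of groups 1 to 3, 5 were on, and of the 16 genes of groups 9 to 13, 8 were on in both genotypes. In a bulk sample, fewer cells with a gene on and less RNA per cell cannot be told apart.

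**Figure D1:**
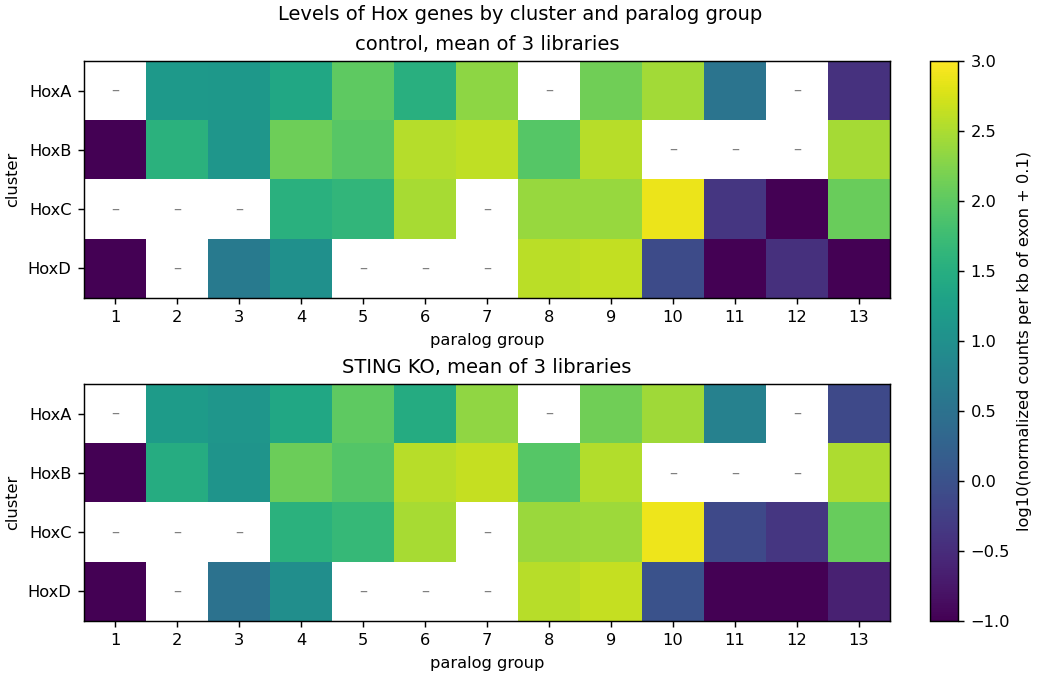
Mean level of 38 of the 39 Hox genes in control (top) and STING KO (bottom), with clusters in rows and paralog groups in columns; colour is log10 of normalized counts per kb of exon plus 0.1, and a dash marks a position with no gene or with a gene not reported here. Genes on in both genotypes fill the middle columns, and the dark cells at groups 10 to 13 are in the same places in both panels, with Hoxb13 and Hoxc13 bright among them.

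Levels of different genes were compared per kb of annotated exon. Hoxc10, which in the embryo marks the lumbar region, was the highest member, at 750.1 ± 12.6 normalized counts per kb in control cells and 797 ± 62.3 with STING KO (SD, n = 3 each). Per kb it stood at percentile 92.1 of the 12408 genes tested. The next members in control were Hoxd9 (423 ± 26.5), Hoxb7 (419.9 ± 25.8), Hoxd8 (379 ± 14.2), Hoxb9 (369 ± 12.1) and Hoxb6 (359 ± 21.7 normalized counts per kb, SD, n = 3). Each of these lay within the SDs of its neighbours in that order, except Hoxb7 and Hoxd8, whose means were further apart than either SD. With the longest transcript of each gene as the length, Hoxc10 was still first, followed by Hoxb7 and Hoxc6. Of all normalized counts in Hox genes, groups 9 to 13 held 51.9%, groups 4 to 8 held 45.5% and groups 1 to 3 held 2.61%.

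In every cluster the highest gene per kb lay between groups 7 and 10, namely Hoxa10, Hoxb7, Hoxc10 and Hoxd9. HoxC (chromosome 15, 102921103 to 103036852 in GRCm38) and HoxB (chromosome 11, 96194316 to 96368256) each had a group 13 gene on, while HoxA (chromosome 6) and HoxD (chromosome 2, 74668310 to 74765142) did not. All members are annotated as protein coding.

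**Figure D2:**
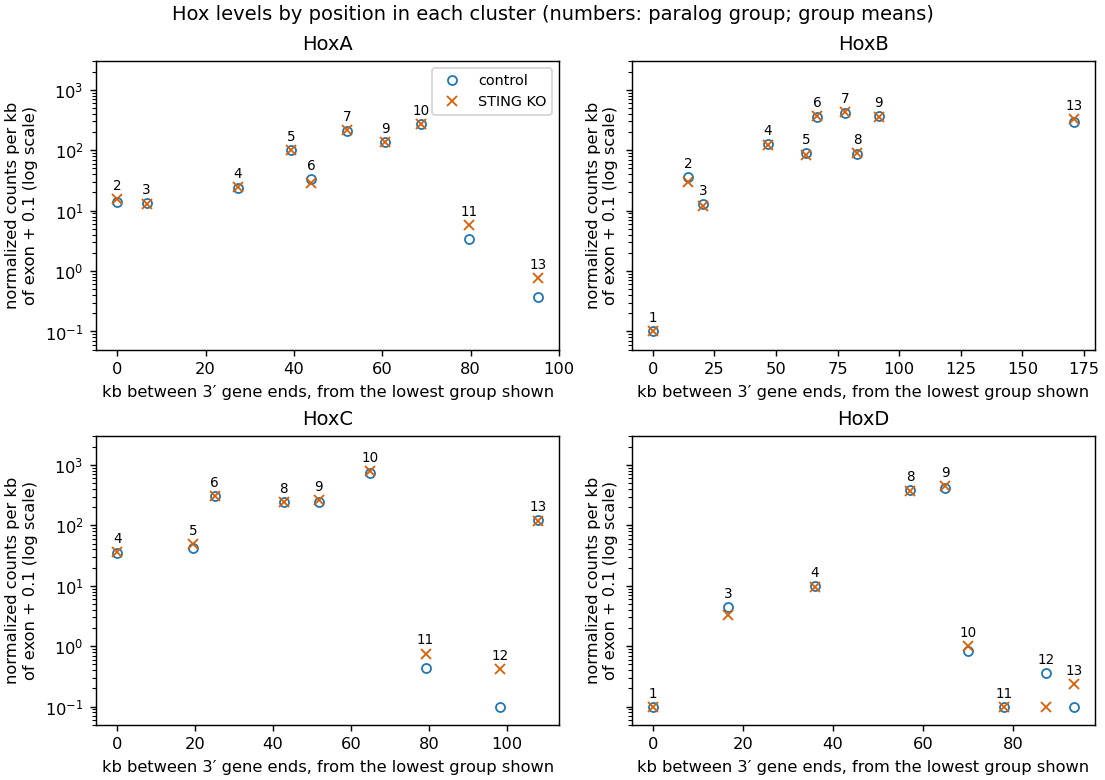
Mean level of 38 of the 39 Hox genes (normalized counts per kb of exon plus 0.1, log axis) against distance along the cluster, measured between the 3′ ends of genes in kb; circles are control, crosses STING KO, and the numbers are paralog groups. Circles and crosses lie close together for the genes on in both genotypes, and the drop after group 9 in HoxD and after group 10 in HoxA and HoxC is in the same place in both.

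In HoxA 9 of 11 genes were on in both genotypes. Hoxa2, which patterns the second pharyngeal arch, was at 21.96, 22.9 and 29.8 in the control libraries and 26.7, 24.9 and 32.1 in the STING KO libraries. Hoxa3, needed for the thymus and parathyroid glands, was at 93.8, 66.8 and 80.5 normalized counts among the control libraries and 75.2, 86.6 and 65.3 in the STING KO libraries. Both of these genes were low, and for each of them the libraries of the groups overlapped. Hoxa4 was at 31.9, 39.9 and 42.7 in the control libraries and 46.5, 37.8 and 32.1 in the STING KO libraries. Hoxa5, which acts in lung and neck development, was at 187, 194 and 186 in the control libraries and 195, 169 and 205 in the STING KO libraries. Hoxa6 was the most variable member that was on, at 27.95, 19.95 and 38.7 normalized counts among the control libraries and 33.7, 27.9 and 13.1 in the STING KO libraries. Its lowest value was in STING KO replicate 3, and the groups overlapped.

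The 5′ part of HoxA was higher. Hoxa7 was at 570.1, 650.4 and 591 normalized counts among the control libraries and 621, 603 and 679 in the STING KO libraries. Hoxa9, known for its part in blood stem cells and leukaemia, was at 769.8, 787 and 744 in the control libraries and 759, 746 and 764 in the STING KO libraries. Hoxa10, which patterns the lumbar spine and the uterus, was at 971, 849 and 892 in the control libraries and 889.8, 918 and 839.5 in the STING KO libraries. All 3 had overlapping groups. Past Hoxa10 the level dropped over 1251 bases between annotated genes: Hoxa10 was at 276 ± 19.00 normalized counts per kb in control and Hoxa11 at 3.34 ± 0.26 (SD, n = 3). Hoxa13, which acts in the hand, foot and genital tubercle, was at 0 to 1.99 normalized counts in the 6 libraries.

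Hoxa11 (ENSMUSG00000038210, 52242106 to 52245810), which patterns the forearm and lower leg, lay at the boundary. It had 7.99, 7.98 and 6.95 normalized counts among the control libraries and 13.9, 10.95 and 14.1 in the STING KO libraries, so all STING KO libraries were above all control libraries and the level of 10 fell between the groups. The log2 fold change was 0.75 with a 95% interval of 0.04 to 1.45 (SE 0.31, limma adjusted p = 0.738). It passed the minimum for testing only through the STING KO group, so its place among the genes tested depends on the difference itself. With 800 exon bases in common, Hoxa11 overlaps Hoxa11os on the opposite strand, which was at 10.6 ± 4.17 and 13.97 ± 3.56 normalized counts (SD, n = 3 each). The shared bases are 35.0% of the exon bases of Hoxa11. No source used here states whether strand was counted, so it is not known whether reads of the shared bases can be told apart.

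In HoxB 9 of 10 genes were on in both genotypes and Hoxb1, which sets the identity of a hindbrain segment, was listed at 0 in all 6 libraries. Hoxb2 was at 135, 119.7 and 122 normalized counts among the control libraries and 102, 101 and 113 in the STING KO libraries, with every STING KO library below every control library. Its log2 fold change was -0.25 (SE 0.10, 95% interval -0.49 to -0.02, limma adjusted p = 0.738). Hoxb2 shares 953 exon bases with the antisense gene Hoxb3os, and Hoxb3 shares 2250 with it. Hoxb3 was at 60.9, 49.9 and 51.7 in the control libraries and 48.5, 60.7 and 41.2 in the STING KO libraries, lower per kb than Hoxb2 and with overlapping groups. Hoxb4, used to expand blood stem cells, was at 322, 338 and 329.8 in the control libraries and 316, 318 and 325 in the STING KO libraries. Hoxb5, which acts in the nerve cells of the gut, was at 239.6, 276 and 245 normalized counts among the control libraries and 218, 230.0 and 250.04 in the STING KO libraries. For both, the groups overlapped.

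The centre of HoxB was high. Hoxb6 was at 687, 753 and 674 normalized counts among the control libraries and 761, 725 and 727 in the STING KO libraries. Hoxb7, active in the budding kidney duct, was at 622, 694 and 629 in the control libraries and 664, 687 and 678 in the STING KO libraries. Hoxb8, which acts in haematopoietic cells and microglia, was at 218, 240.4 and 229 in the control libraries and 231, 230.0 and 240.0 in the STING KO libraries. The level of Hoxb8 per kb (86.98 ± 4.32 in control, SD, n = 3) lay well below those of its neighbours on either side in both genotypes. Hoxb9 was at 961, 914 and 973 normalized counts among the control libraries and 928, 898 and 886 in the STING KO libraries, with overlapping groups.

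Hoxb13 (ENSMUSG00000049604, 96194316 to 96197447), which acts at the tail end of the body axis and in the prostate, was on, and it lies 74.0 kb from its nearest Hox neighbour, Hoxb9. It had 609, 702 and 632 normalized counts among the control libraries and 699.8, 701 and 748 in the STING KO libraries. Control replicate 2 lay above STING KO replicates 1 and 2, so the groups overlapped. The log2 fold change was 0.15 (SE 0.07, 95% interval -0.01 to 0.30, limma adjusted p = 0.738). In the authors' deposited table it had the smallest p of all members, at 0.127.

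HoxC had 7 of 9 genes on in both genotypes, with the highest member, Hoxc10, beside a pair of genes near 0. Hoxc4 was at 99.8, 79.8 and 86.4 normalized counts among the control libraries and 85.1, 102 and 90.4 in the STING KO libraries. Hoxc5 was at 121, 137 and 133 in the control libraries and 170.2, 137 and 142 in the STING KO libraries, with its lowest STING KO library (137.4) just above its highest control library (136.7). Its log2 fold change was 0.20 (SE 0.11, limma adjusted p = 0.738). Hoxc5 shares 166 exon bases on the same strand with Hoxc10, the highest member, so reads of the shared bases cannot be told apart. Hoxc6, which acts in the thorax, was at 723, 737 and 739 in the control libraries and 747, 729 and 716 in the STING KO libraries. Hoxc8 was at 668, 738 and 679 in the control libraries and 724, 642 and 729 in the STING KO libraries. Hoxc9, which sets thoracic identity in motor neurons, was at 574, 640.4 and 572 normalized counts among the control libraries and 614, 574 and 698 in the STING KO libraries. For these 3 genes the groups overlapped. Hoxc10 was at 1435, 1454 and 1407 in the control libraries and 1505, 1413 and 1649 in the STING KO libraries, and its highest library was STING KO replicate 3, while STING KO replicate 2 lay within the control range.

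Beyond Hoxc10, Hoxc11 and Hoxc12 were at 0 to 2.97 and 0 to 0.996 normalized counts. Hoxc13 (ENSMUSG00000001655, 102921103 to 102928814), which acts in hair follicles and nails, was on again, at 293, 304 and 317 in the control libraries and 296, 255 and 315 in the STING KO libraries. Per kb it stood at 124 ± 4.95 normalized counts for control and 117 ± 12.5 with STING KO (SD, n = 3 each). Hoxc12, 7942 bases away, was listed at 0 in 5 of 6 libraries.

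HoxD had the fewest genes on: Hoxd4, Hoxd8 and Hoxd9 of its 9 genes were on in both genotypes. Hoxd1 and Hoxd11 were listed at 0 in all libraries, Hoxd12 and Hoxd13 stayed at or below 1.004 normalized counts, and Hoxd10, a gene of the lower spinal cord and hindlimb, stayed between 0.99 and 3.01. Hoxd8 was at 1035, 1005 and 1082 normalized counts among the control libraries and 1073, 1038 and 958 in the STING KO libraries. Hoxd9 (ENSMUSG00000043342, 74697727 to 74700208) was at 891, 965 and 853 in the control libraries and 986, 893 and 1010.2 in the STING KO libraries. For both, the groups overlapped. Between the annotated genes Hoxd9 and Hoxd10 lie 2621 bases. Across them the level fell from 423 ± 26.5 to 0.731 ± 0.314 normalized counts per kb for control and from 451 ± 28.9 to 0.917 ± 0.642 with STING KO (SD, n = 3 each).

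The bases just upstream of the genes on each side of this step are shown because the step lies between them. They are from RefSeq on GRCm38.p6, written 5′ to 3′, restricted to bases that lie in no exon of GENCODE M21, with CpG dinucleotides in capitals.
Hoxd10, chr2:74691641-74691890, + strand: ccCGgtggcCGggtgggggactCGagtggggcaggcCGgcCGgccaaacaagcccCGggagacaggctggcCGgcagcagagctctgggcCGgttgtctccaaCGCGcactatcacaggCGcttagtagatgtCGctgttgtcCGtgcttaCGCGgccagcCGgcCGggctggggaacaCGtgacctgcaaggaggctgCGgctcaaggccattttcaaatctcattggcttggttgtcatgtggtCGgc
Hoxd9, chr2:74697587-74697726, + strand: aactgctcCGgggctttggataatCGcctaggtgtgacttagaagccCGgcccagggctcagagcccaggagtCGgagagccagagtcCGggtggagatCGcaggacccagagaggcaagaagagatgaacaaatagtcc
Hoxd8, chr2:74704365-74704614, + strand: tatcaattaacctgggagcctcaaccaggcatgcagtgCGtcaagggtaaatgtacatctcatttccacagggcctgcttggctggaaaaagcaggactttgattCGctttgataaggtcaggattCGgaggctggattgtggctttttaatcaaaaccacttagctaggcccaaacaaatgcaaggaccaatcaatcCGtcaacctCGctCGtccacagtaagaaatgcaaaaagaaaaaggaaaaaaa
The run of Hoxd10, which was near 0, held 20 CpGs in 250 bases, and that of Hoxd8, which was high, held 6 in 250 bases. That of Hoxd9, which was high, held 6 in 140 bases and is shorter because bases in exons were left out. Over the full 300-base windows from RefSeq, exon bases included, Hoxd9 held 20 CpGs, Hoxd10 held 22 and Hoxd8 held 6, so the windows of Hoxd9 and Hoxd10, on either side of the step, were close in CpG count.

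The other members are given as counts. RefSeq promoter windows (250 bases before to 50 after the start) were on hand for 22 of 39 Hox genes. The median was 12 CpGs per window for the 13 genes on in both genotypes, with a range of 4 to 29. It was 20 for the other 9, with a range of 4 to 45, and 7 for all 32851 windows of the table. The sets are not alike in position. Windows of Hoxa7, Hoxa9, Hoxd4 and Hoxc4, all on, lay 3281, 3719, 10049 and 15461 bases from the annotated gene start. They held 9, 4, 4 and 9 CpGs. Among the other 9 the furthest was that of Hoxd13, at 85 bases. The high genes Hoxc10, Hoxb6, Hoxb7 and Hoxb9 had no window. The part of these limits in the medians was not tested. Hoxa13 (45 CpGs), Hoxd13 (37) and Hoxd1 (29), none of them on, were among the 4 richest windows, with Hoxa5 (29), which was on. On either strand, the CCAAT box, searched as CCAAT, was in 14 of the 22 windows (63.6%, against 37.4% of all windows). The TATA box, searched as TATAAA, was in 3 of 22 (13.6% against 13.6%), and the GC box, searched as GGGCGG, in 9 of 22 (40.9% against 35.7%). A paired Hox and Pbx site, searched as TGATTNAT, was found in the window of Hoxa2 and in 3.22% of all windows. These are matches of letters in short windows and say nothing of binding.

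The 3′ part of HoxD was low. Hoxd4, which acts in the hindbrain and upper spine, was at 30.9, 19.95 and 36.8 normalized counts among the control libraries and 23.8, 31.9 and 28.1 in the STING KO libraries. Hoxd3 was at 8.99, 18.95 and 26.8 in the control libraries and 18.8, 8.96 and 12.1 in the STING KO libraries, with 1 library of each group just under the level of 10. These genes share 388 exon bases on the same strand. Gm28230, a gene of the same strand with no values here, shares more, at 2225 exon bases of Hoxd3 and 1154 of Hoxd4. In all, 16 of the 39 members share exon bases with some other annotated gene, so low values of this kind are uncertain.

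For the 3 members listed at 0 in every library, 3 counts would be 0.207 to 0.209 CPM in a single library. This is the usual 95% upper bound for a count of 0, and it covers counting error only. A 0 in this table need not be an absent RNA: Men1, which encodes menin of the MLL complexes and is on in most cells, was also listed at 0 in all 6 libraries.

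**Figure D3:**
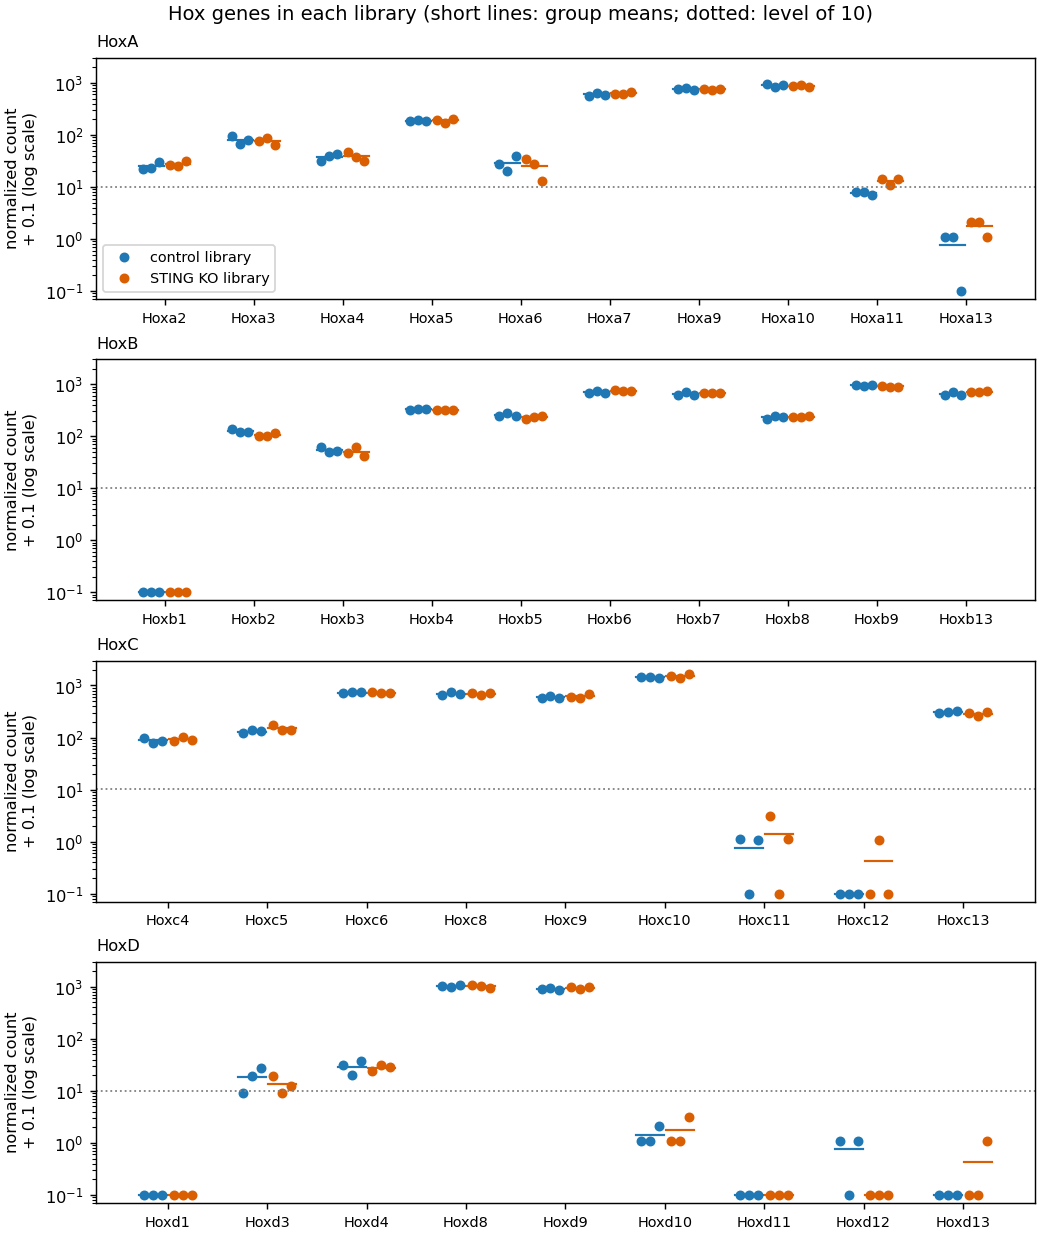
Normalized counts plus 0.1 (log axis) of 38 of the 39 Hox genes in each of the 6 libraries, by cluster; points are libraries, short lines group means and the dotted line the level of 10. Control and STING KO points overlap for most genes, Hoxa11 lies below the line in control and above it in STING KO, and the genes at the foot of each panel are those near or at 0.

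No Hox gene differed between the genotypes past the threshold. Of the 30 members above the minimum (10 normalized counts in at least 3 libraries), limma called 0 at an adjusted p of 0.05, while it called 0.258% of all 12408 genes tested. At an unadjusted p under 0.05 there were 2, Hoxb2 lower and Hoxa11 higher, which is 6.67% of the members beside 6.37% of all genes. limma-voom called 0 of the 30, against 0.234% of all genes, and gave 2 at an unadjusted p under 0.05 beside 6.37% of all genes. The authors' deposited table has 0 members past 0.05 in its adjusted p, against 0.294% of its genes (0.043% higher and 0.251% lower in STING KO), and 0 at an unadjusted p under 0.05 beside 2.44%. Groups that do not overlap were seen for 3 of these 30 members, Hoxb2, Hoxa11 and Hoxc5, which is 10% beside 12.1% of all genes tested. Hoxa11 passed the minimum only through the STING KO group, so its lack of overlap was fixed by the filter. Its place in this count and among the 2 at an unadjusted p under 0.05 is therefore no support for a difference.

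The intervals set the size of change that these libraries leave room for. Of the 30 members 27 had a 95% interval of the fold change within 2-fold in both directions (90.0%, against 95.1% of all genes tested), and 25 within 1.5-fold (83.3% against 85.4%). All 20 members with a mean of at least 100 normalized counts were within 1.5-fold. For Hoxc10 the interval of the log2 fold change was -0.06 to 0.23, for Hoxa9 -0.14 to 0.10, for Hoxb7 -0.08 to 0.21 and for Hoxd8 -0.16 to 0.11. The 3 members outside 2-fold were low: Hoxa6 (-1.11 to 0.57), Hoxa11 (0.04 to 1.45) and Hoxd3 (-1.37 to 0.60 on the log2 scale). For these 3 a change of 2-fold in 1 direction lies inside the interval. The median log2 fold change of the 28 genes on in both genotypes was within 0.01 of 0, as was that of all genes tested, and 14 of the 28 had a positive and 14 a negative sign.

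**Figure D4:**
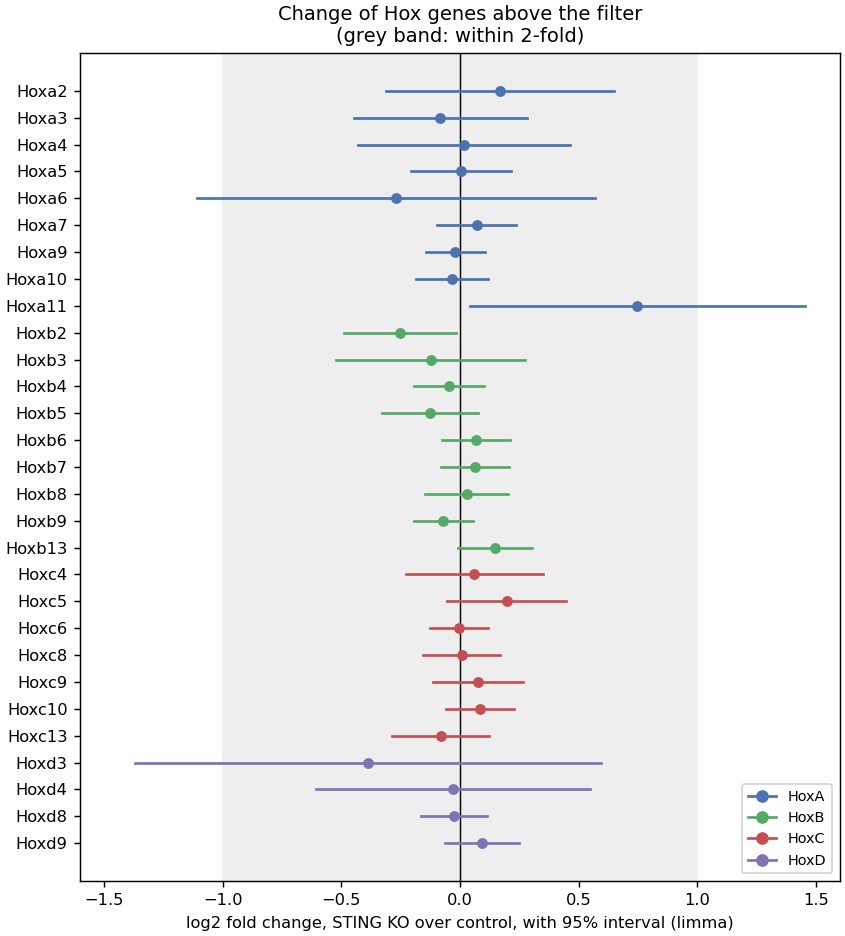
Log2 fold change (STING KO relative to control) with the 95% interval from limma for 29 of the 30 Hox genes above the minimum, coloured by cluster; the grey band marks changes within 2-fold. The interval reaches past the band for Hoxa6, Hoxa11 and Hoxd3, and those of Hoxb2 and Hoxa11 leave out 0.

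As a set, the libraries of the genotypes were no further apart than libraries of the same genotype. Over the 28 genes on, the median absolute log2 difference was 0.06 to 0.16 between control libraries, 0.09 to 0.17 between STING KO libraries and 0.06 to 0.14 between libraries of different genotype. The group means of these 28 genes, in log2 normalized counts per kb, correlated at a Pearson r of 0.999 (Spearman rho 0.996, n = 28 genes), a description over genes that share the 6 libraries and differ widely in level. HoxA summed to 2729, 2677 and 2663 normalized counts in control and 2703, 2674 and 2686 with STING KO. HoxB summed to 3855, 4088 and 3885 in control and 3968, 3950 and 4009 with STING KO. HoxC was at 3914, 4091 and 3934 in control and 4145, 3853 and 4340 with STING KO, with its lowest and highest sum both in STING KO. HoxD was at 1968, 2009 and 2002 in control and 2102, 1973 and 2012 with STING KO. The groups overlapped in all 4 clusters.

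The anterior genes, groups 1 to 3, summed to 366, 317 and 363 normalized counts in control and 312, 329.5 and 305 with STING KO. Control replicate 2 lay between STING KO replicates 1 and 2, and Hoxb2 and Hoxa3 are the largest parts of these sums. Of the 6 tested members of these groups, 5 had a negative sign and limma called 0, with Hoxb2 at an unadjusted p under 0.05.

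In mean log2 value over the 28 genes on, the 2 libraries with hepatocyte transcripts were the highest, by a small margin. Summed counts of all Hox genes did not show this. They were 12485 in control replicate 3 and 12918 in STING KO replicate 1, with the highest sum, 13047, in STING KO replicate 3. Relative to the control mean, the 28 genes lay at 0.04 in control replicate 3 and 0.02 in STING KO replicate 1, and between -0.03 and -0.01 in the other 4, in mean log2 value. The 9 HoxA genes lay at 0.11 and 0.06 in these 2 libraries and between -0.13 and 0.005 in the other 4. The other clusters did not share this. In the same 2 libraries the 9 HoxB genes lay at -0.03 and -0.05, the 7 HoxC genes at -0.006 and 0.07, and the 3 HoxD genes at 0.12 and -0.03. These 2 libraries were the highest of both groups for 6 of the 30 members (20%, beside 8.77% of all genes tested), namely Hoxa4, Hoxa6, Hoxb9, Hoxc6, Hoxd3 and Hoxd8, and their part in these values was not tested. Without them, 28 members were on in control, 29 with STING KO and 28 in both, and limma called 0 Hox genes, with 0 at an unadjusted p under 0.05.

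Cofactors that Hox proteins bind DNA with were present in both genotypes. The TALE homeodomain family supplies them: PBX and MEIS proteins form complexes with Hox proteins on DNA, and TGIF proteins act as repressors at related sites. Of 12 genes in the list, 10 were above the minimum and 0 were called by limma in either direction, with 0 at an unadjusted p under 0.05 and a median log2 fold change of -0.02. Pbx2 was at 818 ± 19.2 normalized counts for control and 861 ± 9.90 with STING KO (SD, n = 3 each). Meis1 was at 261 ± 10.05 and 266 ± 18.7, Meis2 at 607 ± 33.9 and 587 ± 12.96, Meis3 at 416 ± 13.3 and 408 ± 56.3 and Pknox1 at 611 ± 15.3 and 607 ± 16.9 (SD, n = 3 each). Pbxip1, a PBX-binding protein, was at 1230.0 ± 32.1 and 1267 ± 26.6, and Tgif1 at 1556 ± 45.1 and 1445 ± 97.3, the smallest p of the list (limma adjusted p = 0.738). Pknox2 and Tgif2 were above the minimum at 26.6 and 26.9 normalized counts for control and 33.5 and 27.2 with STING KO. Pbx3 and Pbx4 were below it. For this list and the 4 described next, limma-voom and the authors' deposited table also had 0 genes past 0.05.

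Noncoding RNAs of the clusters were low. Of 24 named cluster genes, microRNA loci and the flanking Evx genes, 17 were in the table and 5 were above the minimum, all noncoding, with 0 called by limma and 0 at an unadjusted p under 0.05. Hotairm1 was at 23.2 ± 3.96 normalized counts for control and 19.3 ± 2.91 with STING KO, and Hoxb5os was at 20.9 ± 8.66 and 18.6 ± 5.64 (SD, n = 3 each). Hoxaas2 was at 14.6 ± 4.46 and 11.95 ± 1.65 and Hoxaas3 at 13.3 ± 3.23 and 10.98 ± 3.67 (SD, n = 3 each). Their median log2 fold change, Hoxa11os included, was -0.25 and went to -0.04 without control replicate 3. Hotair, a noncoding RNA of HoxC near Hoxc11, was at 4.98 ± 1.99 and 3.99 ± 1.03, below the minimum. Evx1 was listed at 0 in all libraries, and so were the loci of miR-196a and miR-196b; mature microRNAs carry no poly(A) tail, so these values do not measure them.

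The chromatin complexes that keep Hox genes off or on were measured as well. Polycomb complexes hold silent Hox genes under methylated histone H3, the MLL and other Trithorax proteins oppose them, and CTCF marks borders inside the clusters. Of 31 genes in the Polycomb and Ctcf list, 30 were above the minimum, 0 were called and 2 had an unadjusted p under 0.05, with a median log2 fold change of 0.00 beside a median within 0.01 of 0 over all genes. These 2 were Asxl1, a partner of the deubiquitinase BAP1, at 1351 ± 64.9 and 1222 ± 13.2 normalized counts, and Pcgf3, at 1408 ± 123 and 1237 ± 72.8 (SD, n = 3 each, limma adjusted p = 0.738 for both). Ezh2, the H3K27 methyltransferase, was at 1465 ± 49.4 and 1472 ± 40.1, and Ctcf at 2282 ± 105 and 2232 ± 117 (SD, n = 3 each).

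Of 16 tested Trithorax, MLL and H3K27 demethylase genes, limma called 0 and 2 had an unadjusted p under 0.05. Their median log2 fold change was -0.16, and 13 of the 16 had a negative sign. The 2 were Aff1, of the super elongation complex, at 1925 ± 219 and 1561 ± 172 normalized counts (limma adjusted p = 0.728), and Rbbp5, a core subunit of MLL complexes, at 650 ± 26.2 and 572 ± 21.9 (limma adjusted p = 0.732; SD, n = 3 each). Relative to the control mean, the median of the list was 0.05, -0.10 and 0.06 in the control libraries and -0.10, -0.02 and -0.24 in the STING KO libraries. Without STING KO replicate 3 the median log2 fold change was -0.04. The count at an unadjusted p under 0.05 changed with the library left out, while 0 genes were called in each case. Dropping STING KO replicate 2 gave 9, and dropping control replicate 2 gave 8. It was 3 after STING KO replicate 1 was dropped, 1 after control replicate 3 and 0 after control replicate 1. Across all 12408 genes tested the same fits, in that order, gave 1375, 1680, 647, 412 and 389, against 791 with all libraries. A swing was therefore not confined to this list, but as a share of the 16 genes it was larger than as a share of the 12408. Dropping STING KO replicate 1 raised the count of the list, from 2 to 3, and lowered that of all genes. Kmt2a, the MLL1 methyltransferase that keeps Hox genes on in many tissues, was at 1642 ± 143 and 1451 ± 200 normalized counts (SD, n = 3 each).

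Genes of the retinoic acid pathway, which switches on 3′ Hox genes in the embryo, had 0 of 11 called and 0 at an unadjusted p under 0.05 by limma, with a median log2 fold change of 0.06. The receptor genes Rarg (2258 ± 113 and 2383 ± 115 normalized counts) and Rxra (2195 ± 45.4 and 2208 ± 95.6) were the highest receptors in both genotypes (SD, n = 3 each). Crabp2, which carries retinoic acid to its receptors, was at 87.4 ± 15.8 and 103 ± 5.95, and Dhrs3, which limits its synthesis, at 49.8 ± 8.76 and 60.4 ± 8.62 (limma adjusted p = 0.738 for both).

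**Figure D5:**
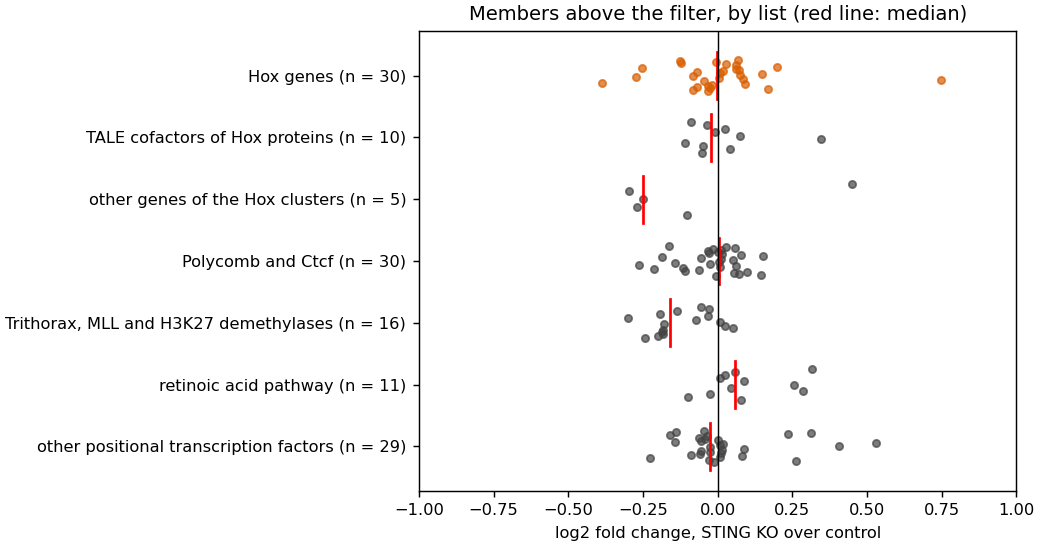
Log2 fold change (STING KO relative to control) for the members above the minimum of the Hox genes and of the lists of related genes; points are genes and red lines medians. The medians lie near 0 for the Hox genes and most lists, at -0.16 for the Trithorax list and at -0.25 for the 5 noncoding cluster genes.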

How the data were processed

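Per the submitters' processing notes, which name tools only, the authors worked with DESeq2 1.4.5, RSEM 1.2.12, HISAT2 2.0.4 and Bowtie2 2.2.5 and the builds GRCm38 and mm10. Annotation and strand setting are not given in these sources. The deposited table holds 1 signal per sample, gene counts divided by a size factor. This was read from the values, 100% of which were whole multiples, within 0.01, of 1 step per column. Per the file headers, it also holds the authors' comparison of the genotypes, as a log2 fold change, its error, a test score and p-values before and after adjustment. The table has 27821 rows, and the first row of each of 27507 identifiers was used. GENCODE M21 (GRCm38) gave coordinates and exon lengths.

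The trend method of limma 3.58.1 (R 4.3.3) was fitted on log2(normalized count + 0.1) for the 12408 genes with at least 10 in at least 3 samples, with no covariate and Benjamini-Hochberg adjustment over all of them (threshold 0.05). On this scale the change of low genes is understated. The fit was tested on simulated data. Alternatives were other scalings, filters and pseudocounts, limma-voom, the authors' test, a replicate block and leaving out libraries. Hox genes above the minimum are described by library, and of each list the 2 genes with the smallest p are named, beside genes named for their role after their values were seen. The members and lists were chosen with earlier results of these data known. The values showed no sign that replicate numbers pair the samples, and the main fit used no pairing. Values of some genes are not reported here; the counts and sums over lists include them.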

Additional observations from a re-analysis of the deposited data

How the results depend on the processing

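Under every alternative run, limma or the other tests called 0 Hox genes, and of 442 member values 442 stayed on their side of the threshold, the lowest adjusted p being 0.359. Of these uncalled values 36 changed sign, in 16 of the 30 tested members. Hoxa11, Hoxb2 and Hoxb13 did not, at log2 fold changes of 0.63 to 0.86, -0.31 to -0.20 and 0.10 to 0.21. Hoxa11 passed the minimum only through the STING KO group, so its steady sign is no support for a difference. The count of genes on in both genotypes was 30 at a level of 5, 26 at a level of 20 and 29 by the group mean, against 28. Over all genes limma called 32, and 18 with a replicate block. Same-numbered samples had deviations that correlated at -0.18, -0.18 and -0.49, so no sign of pairing by number was seen. With so few samples this cannot show that none exists. Leaving out 1 library gave 21 (without control replicate 1) to 35 (without STING KO replicate 3) called genes, and 13 were called without control replicate 3 and STING KO replicate 1 together, a fit with fewer samples. The count test on recovered reads was not run, because the step of each column is too close to 1 to recover reads with certainty. Of the tested Hox genes with a mean under 100 normalized counts, 7 of 10 had intervals within 2-fold, against 20 of 20 above; the part of depth in this was not tested.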

Other observations

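Transcription factors other than Hox genes that mark regions of the body were measured beside them. Of 62 such genes 29 were above the minimum, 13 were listed at 0 in all libraries, and limma called 0 in either direction, with 1 at an unadjusted p under 0.05 (median log2 fold change -0.03). That 1 was Dlx3, a factor of skin and its appendages, at 213 ± 17.5 normalized counts for control and 264 ± 26.1 with STING KO, with no overlap of the groups (SD, n = 3 each, limma adjusted p = 0.717). Osr2, a factor of the palate and joints, had the next smallest p, at 157 ± 28.2 and 187 ± 11.1 (limma adjusted p = 0.738).

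Several of these genes were high in both genotypes. Tbx15, which patterns skin and bone of the trunk, was at 1937 ± 10.9 and 1901 ± 43.1 normalized counts (SD, n = 3 each). En1, a factor of the midbrain border and of ventral limb and back skin, was at 395 ± 33.4 and 397 ± 13.7, and Pax3, of the neural crest and muscle precursors, at 500.2 ± 20.8 and 495.5 ± 14.01 (SD, n = 3 each). Shox2, a factor of the proximal limb, was at 704.5 ± 13.4 and 685 ± 43.3. The forelimb factor Tbx5 and the hindlimb factors Tbx4 and Pitx1 had group means of at most 0.995 normalized counts. These genes were named after their values were seen. Of the ParaHox genes, a sister cluster of the Hox genes, 0 of 6 were above the minimum, and the highest value was 9.04.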
